A study of Mus musculus with 23 samples.

Results

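Open chromatin of the mouse maxillary mesenchyme was compared between embryonic day 10.5 (E10.5) and E11.5 by ATAC-seq, in which the Tn5 transposase cuts and tags accessible DNA. The regions described are those whose calls differed completely between the stages: 763 gained regions, called in 3 of 3 E11.5 peak lists and 0 of 3 E10.5 lists, and 175 lost regions, called in the reverse pattern. Together these were 938 of 68890 regions, obtained by merging peaks that overlapped by at least 1 bp over the 6 lists on the 19 autosomes and chromosome X. Gained regions made up 1.11% and lost regions 0.254% of all regions. Merging all 9 lists of the series, E12.5 included, gave 118102 regions.

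All embryos were wild-type C57BL/6, with no transgene or treatment, and each stage had 3 biological samples with 1 peak list each. Per the labels, intact maxillary prominences were dissected, the ectoderm was peeled away after Dispase II, and the remaining mesenchymal cells were lysed for transposition. The 3 E10.5 samples were sequenced as 10 library runs and the 3 E11.5 samples as 5, and the labels do not say how many embryos were pooled for a sample. The labels do not give the sex of the embryos, and p-values between lists measure only the spread between these samples.

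The maxillary prominence forms the upper jaw, the cheek and the palatal shelves. Its mesenchyme comes mostly from cranial neural crest, which migrates into the first pharyngeal arch and is then patterned by signals from the overlying ectoderm, among them FGFs, BMPs, Wnts and Sonic hedgehog. Active promoters and enhancers are depleted of nucleosomes, so a peak marks DNA that regulatory proteins can reach. Promoters of widely expressed genes usually lie in CpG islands and tend to be open in most cell types, whereas distal open regions tend to be specific to a tissue or a stage.

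Of the 763 gained regions, 54.1% lay within 1 kb of a gene boundary, so promoter sequences are shown for both sets. The 3 gained and the 3 lost regions with the strongest peaks among those covering a RefSeq gene start were taken, ranked by the lowest percentile of −log10 q within any of the 3 lists that called them. Each sequence runs 5′ to 3′ on the gene's strand, from 250 bases before to 50 bases after the start, in the GRCm38.p6 (mm10) build of the RefSeq promoter table. Capitals mark matches, on either strand, to 9 motifs: the GC box GGGCGG, the CCAAT box, the TATA box TATAAA, the CRE motif TGACGTCA, the NRF1 motif GCGCNTGCG, the YY1 motif AAGATGGCG, the ETS motif CCGGAAG, the homeodomain motif TAATTA and the E-box CAGCTG. Overlapping matches were each counted, and a match is a string of letters, not a bound site. The 3 gained promoters are those of Pot1b (a telomere single-strand binding protein; chr17:55712575-55712874, minus strand), 2610008E11Rik (chr10:79097551-79097850, minus strand) and Gm14410 (chr2:177206447-177206746, minus strand).
Pot1b, gained: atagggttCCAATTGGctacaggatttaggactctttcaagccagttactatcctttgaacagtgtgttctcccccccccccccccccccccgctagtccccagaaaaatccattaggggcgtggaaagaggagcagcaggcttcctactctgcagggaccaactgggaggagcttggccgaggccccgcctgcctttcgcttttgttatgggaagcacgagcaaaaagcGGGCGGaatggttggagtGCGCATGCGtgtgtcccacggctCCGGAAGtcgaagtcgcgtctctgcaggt
2610008E11Rik, gained: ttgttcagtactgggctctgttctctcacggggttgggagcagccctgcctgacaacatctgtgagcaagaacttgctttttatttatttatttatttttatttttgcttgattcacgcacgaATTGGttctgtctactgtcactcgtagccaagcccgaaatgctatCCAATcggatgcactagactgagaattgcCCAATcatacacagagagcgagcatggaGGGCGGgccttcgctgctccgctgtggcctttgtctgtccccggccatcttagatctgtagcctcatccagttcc
Gm14410, gained: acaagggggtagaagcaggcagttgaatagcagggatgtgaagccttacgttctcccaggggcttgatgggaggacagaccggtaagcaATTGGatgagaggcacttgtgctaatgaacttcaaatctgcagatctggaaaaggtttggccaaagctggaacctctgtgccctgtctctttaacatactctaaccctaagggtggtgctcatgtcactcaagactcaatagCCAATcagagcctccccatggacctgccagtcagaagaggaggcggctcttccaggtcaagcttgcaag

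The 3 lost promoters are those of Pla2g12b (a secreted phospholipase family member; chr10:59403435-59403734, plus strand), Olfm2 (a secreted olfactomedin-domain protein; chr9:20726954-20727253, minus strand) and Agbl2 (a cytosolic carboxypeptidase that trims tubulin tails; chr2:90782988-90783287, plus strand).
Pla2g12b, lost: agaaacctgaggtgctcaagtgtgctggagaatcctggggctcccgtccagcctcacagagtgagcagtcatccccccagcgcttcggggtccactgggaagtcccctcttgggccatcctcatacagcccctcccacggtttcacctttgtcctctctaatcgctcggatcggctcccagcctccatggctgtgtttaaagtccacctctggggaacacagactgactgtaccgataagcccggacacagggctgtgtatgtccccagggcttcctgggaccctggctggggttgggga
Olfm2, lost: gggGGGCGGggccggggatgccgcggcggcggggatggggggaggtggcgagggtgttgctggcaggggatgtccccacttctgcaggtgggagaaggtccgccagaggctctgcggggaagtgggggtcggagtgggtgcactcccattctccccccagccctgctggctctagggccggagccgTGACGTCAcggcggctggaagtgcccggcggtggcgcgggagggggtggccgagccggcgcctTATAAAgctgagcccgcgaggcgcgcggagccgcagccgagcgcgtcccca
Agbl2, lost: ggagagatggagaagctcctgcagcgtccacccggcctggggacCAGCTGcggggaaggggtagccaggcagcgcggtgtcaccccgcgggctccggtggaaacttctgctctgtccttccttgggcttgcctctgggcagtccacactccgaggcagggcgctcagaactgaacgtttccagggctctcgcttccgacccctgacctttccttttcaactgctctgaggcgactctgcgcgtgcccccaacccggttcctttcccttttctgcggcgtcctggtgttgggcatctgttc

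The gained promoters shown held 58%, 49% and 51.3% GC, and the lost promoters 60.3%, 74.7% and 64%. These 6 windows are examples, and the composition of all windows is given with the promoter comparison. Gm14410 lies among near-identical zinc finger genes, so reads may have been shared between copies there.

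The 6 lists differed in length and scale. The E10.5 lists held 16057, 19095 and 14886 peaks and the E11.5 lists 5682, 24908 and 41457, of which 1 lay on chromosome Y in E11.5 sample 2 and was not used. The files give no read counts. The background coverage implied by the authors' fold and −log10 p values was 6.24, 11.9 and 11.8 fragments per base in the E10.5 lists and 2.20, 2.53 and 5.92 in the E11.5 lists, with no overlap between the stages. A fold is therefore compared here only within a list, and an uncalled region means no peak passed the authors' threshold, not closed chromatin. Depth and stage cannot be told apart in these 6 lists. Among the 13 mesenchyme markers, 3, 6 and 3 genes had a called region within 1 kb in the E10.5 lists and 3, 9 and 8 in the E11.5 lists. Twist1, a mesenchymal transcription factor, was covered in 5 of 6 lists, and no list had a region within 1 kb of Prrx1, Prrx2, Col3a1 or Alx4. Of 17 epithelial markers, 2, 5 and 3 were covered at E10.5 and 1, 4 and 8 at E11.5, with Krt5, Krt14, Krt18, Trp63, Grhl3 and Esrp2 at 0 in every list. Of 14 endothelial markers, 3, 4 and 2 were covered at E10.5 and 0, 4 and 6 at E11.5, with Pecam1, Cdh5, Tek, Tie1, Emcn, Sox17 and Plvap at 0. Of 12 blood markers, at most 2 were covered in any list. Of 15 neuron and glia markers, 6, 2 and 3 were covered at E10.5 and 1, 6 and 9 at E11.5. Of 11 muscle markers, 1, 2 and 1 were covered at E10.5 and 0, 3 and 4 at E11.5, and of 8 pericyte markers 1, 2 and 0, and 1, 5 and 4. The part that other cell types have in the results was not tested.

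The number of gained regions exceeded the number that list lengths alone would give. Each list was given its own odds of calling a region, and these odds, fitted over all regions given how many lists called each one, predicted 99.9 gained and 74.7 lost regions. The observed 763 gained regions were 7.64 times the prediction, and the 175 lost regions 2.34 times. The prediction did not describe all combinations well. E11.5 sample 1, the shortest list, rarely called a region without both other E11.5 lists. Its regions were shared with E11.5 sample 2 at 95.3% and with sample 3 at 93.3%, but with the E10.5 lists at 59.7% to 69.2%. When the odds were fitted only among regions called by 3 of the 6 lists, the same counts were 2.40 times the predicted 317.4 gained regions and 7.95 times the predicted 22 lost regions. Both sets stayed above their prediction, but which set exceeded it more depended on that choice. Without E11.5 sample 2, the lost regions numbered 216, only 1.08 times the 200.9 predicted. Without E11.5 sample 1, which limits the gained set, 5445 regions were gained, 1.89 times the prediction.

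**Figure D1:**
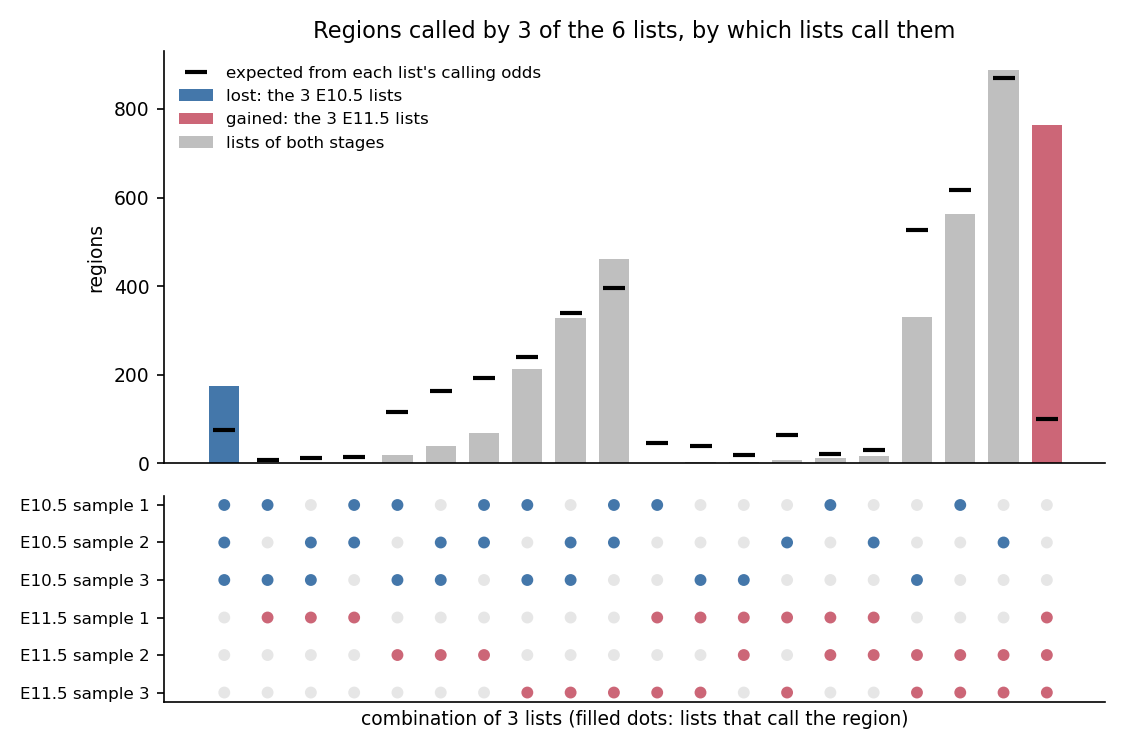
Regions called by exactly 3 of the 6 lists (vertical axis, number of regions), by the combination of lists that called them (filled dots below each bar). Bars are observed counts and black marks the counts predicted from each list's calling odds. The 763 gained and 175 lost regions both rise above their marks, and combinations of E11.5 sample 1 with E10.5 lists are nearly empty.

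Regions just outside the definition were more numerous than those inside it. A further 4818 regions were called by 2 of 3 E11.5 lists and 0 of 3 E10.5 lists, and 701 by all 3 E11.5 lists and 1 E10.5 list. On the other side, 1380 regions were called by 2 E10.5 lists and no E11.5 list, and 536 by all 3 E10.5 lists and 1 E11.5 list. All 6 lists called 2654 regions.

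Gained and lost regions differed in where they lay. Of the gained regions, 54.1% (413 of 763) had their strongest summit within 1 kb of the start or end of a protein-coding gene, and the median distance to such a boundary was 593 bp. Of the lost regions, 18.9% (33 of 175) lay that close, and the median distance was 11033 bp, with 64% of them inside a gene body. Regions called by 3 lists in any other combination were near a boundary in 47.5% of cases, regions called by all 6 lists in 83.8%, and regions overall in 21.1%. Over 100 kb from any boundary lay 11% of the gained regions, 9.14% of the lost ones, 4.71% of the other 3-list regions and 13.4% of all regions. Between 10 and 100 kb lay 45.1% of the lost regions, near the 41.8% of all regions, and 20.4% of the gained ones.

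**Figure D2:**
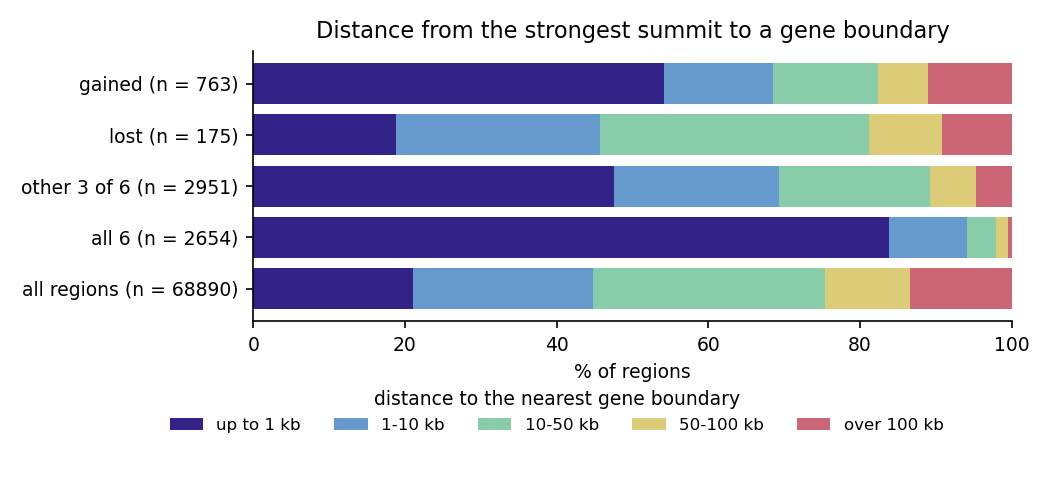
Share of regions (horizontal axis, percent) in 5 classes of distance from the strongest summit to the nearest protein-coding gene boundary, for gained, lost, other 3-of-6, all-6 and all regions. The gained set has 54.1% within 1 kb and 11% beyond 100 kb, and the lost set 18.9% within 1 kb.

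The size of this contrast depended on the length of the lists and on E11.5 sample 1. Every gained region is in that list, the shortest, where 73.1% of all peaks lay within 1 kb of a boundary. Without it, 38.3% of the 5445 gained regions lay that close, and 18.9% of the 175 lost regions. Among lists shortened to their 5682 strongest peaks, 577 regions were gained and 217 lost, and the boundary shares were 73.3% and 50.7%. When separate odds were fitted near to and away from boundaries, the 413 gained regions near a boundary were 3.48 times the predicted 118.8, and the 350 others were 11.9 times the predicted 29.4. For lost regions the same ratios were 4.01 (33 against 8.23) near a boundary and 2.64 (142 against 53.7) elsewhere. Relative to what list lengths predicted within each class, the gained regions therefore exceeded the prediction more away from boundaries, although most of them lay at boundaries.

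Whole lists did not separate by boundary share as deposited. Each list here includes its peaks in gained or lost regions. The share of peaks within 1 kb of a boundary was 41.2%, 37.5% and 39.0% in the E10.5 lists and 73.1%, 41.4% and 31.2% in the E11.5 lists, so the 3 E11.5 lists spanned the E10.5 values. The difference of means was 9.33 percentage points (exact two-sided permutation test, p = 0.7). At equal length the shares were 65.4%, 65.5% and 60% at E10.5 and 73.1%, 74.8% and 79.6% at E11.5. These did not overlap, and the difference was 12.2 percentage points, from 63.6% ± 3.17 to 75.8% ± 3.37 (SD, n = 3 each; exact permutation p = 0.1, the smallest that 3 against 3 lists allow).

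Promoters under gained regions had a lower median GC than those under other regions called by 3 lists. Gained regions covered 401 RefSeq promoter windows of 376 genes, with a median GC of 57.3% (interquartile range 52.3% to 63%). The median was 61.7% over the 1069 windows under other 3-list regions, 64.3% over the 2607 windows under regions of all 6 lists, 64% over the 11 under lost regions, and 56.7% over all 21045 windows. The observed-over-expected CpG ratio under gained regions was 0.743, against 0.574 over all windows and 0.819 under regions of all 6 lists, so the gained promoters were CpG-rich relative to all promoters. The GC box occurred in 63.1% of gained windows, 65.8% of windows under other 3-list regions, 77.5% under regions of all 6 lists and 46.7% of all windows. CCAAT occurred in 43.1%, 35.0%, 49.7% and 38.5% of the same classes. The ETS motif occurred in 22.9%, 20.8%, 20.7% and 11.7%, and the homeodomain motif in 3.74%, 1.5%, 1.19% and 4.47%. The YY1 motif occurred in 2.49%, 3.27%, 3.68% and 1.84%, and the E-box in 14.5%, 18.3%, 12.0% and 15.7%. TATAAA occurred in 6.73%, 5.52%, 2.80% and 12.7%, the CRE motif in 4.99%, 3.18%, 3.99% and 2.26%, and the NRF1 motif in 15.2%, 16.5%, 16.3% and 8.69%.

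Promoter GC was also compared between the strongest peaks of each list. These peaks can include those of gained regions, so the values are not separate from the gained set. Among the strongest 5682 peaks of each list, the promoter windows covered had a median GC of 64.7%, 64.7% and 64% at E10.5 and 62.7%, 62% and 62% at E11.5. Every E11.5 list was below every E10.5 list, with means of 64.4% ± 0.385 and 62.2% ± 0.385 (SD, n = 3 each; exact two-sided permutation p = 0.1). The part that base composition has in the gained set was not tested.

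Chromosome X held a larger share of the gained regions than of the other sets. Of the gained regions 55 (7.21%) lay on X, against 1 (0.571%) of the lost regions, 2.27% of other 3-list regions, 0.791% of regions in all 6 lists and 1.52% of all regions. Of these 55, 42 were within 1 kb of a gene boundary. They included the boundaries of Enox2 (a cell surface oxidase; chrX:49287770-49288526), Fundc1 (a mitophagy receptor; chrX:17571551-17572427), Gemin8 (a subunit of the SMN complex that assembles spliceosomal RNPs; chrX:166170269-166170860) and Pola1, the catalytic subunit of DNA polymerase alpha (chrX:93631906-93632543). Fundc1 had folds of 7.23, 12.6 and 8.01 in E11.5 samples 1, 2 and 3. Pola1 had folds of 5.43, 8.93 and 4.49. Neither was called in any E10.5 or E12.5 list. Pou3f4, a POU-domain transcription factor, had a gained region 0.122 kb from its boundary, with folds of 6.56, 8.13 and 4.65, that 2 E12.5 lists also called. The 1 lost region on X lay at Gjb1, a gap junction gene.

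The X share was also taken over all peaks of each list. The E11.5 lists include the gained regions, so these shares are not separate from the gained set. X held 1.44%, 1.67% and 0.336% of peaks in the E10.5 lists, 3.04%, 2.63% and 1.70% in the E11.5 lists, and 0.617%, 1.21% and 1.07% in the E12.5 lists. Each E11.5 list was above each E10.5 list, although E11.5 sample 3 exceeded E10.5 sample 2 by only a little. The means were 1.15% ± 0.713 and 2.46% ± 0.687 (SD, n = 3 each), a difference of 1.31 percentage points (exact two-sided permutation p = 0.1). At equal length the shares were 1.36%, 1.57% and 0.334% against 3.04%, 3.43% and 2.38%, a difference of 1.87 points (exact permutation p = 0.1). The comparison of X was chosen after its values were seen.

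**Figure D3:**
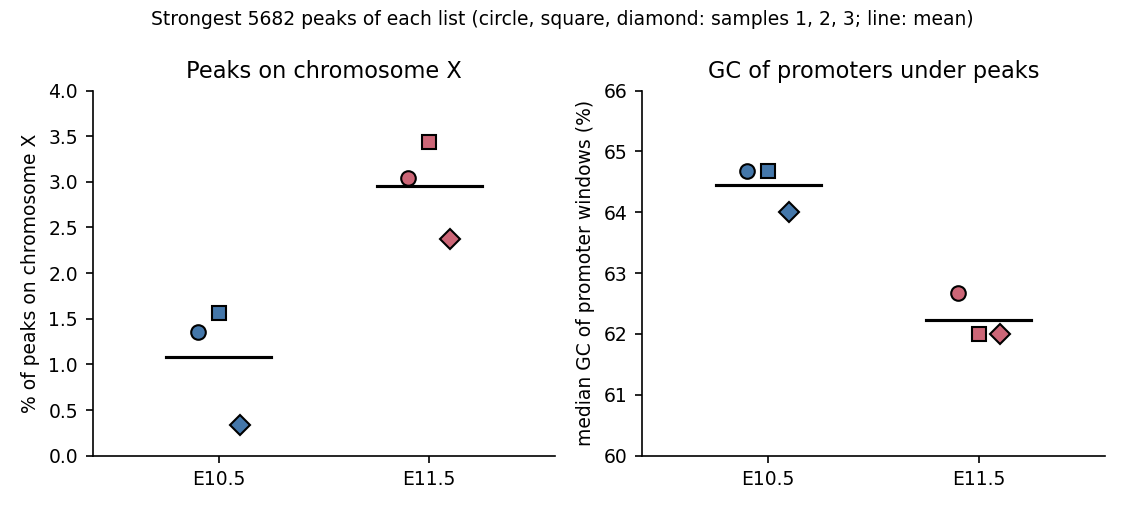
Share of peaks on chromosome X (left, percent) and median GC of RefSeq promoter windows under peaks (right, percent; the axis starts at 60), for the strongest 5682 peaks of each E10.5 and E11.5 list. Points are samples 1 to 3 and lines the stage means; the stages do not overlap in either panel, 1.09% against 2.95% on X and 64.4% against 62.2% GC.

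The E12.5 lists took no part in defining either set, and most gained regions were not called in them. Gained regions were called at 5.37%, 13.0% and 6.16% in E12.5 samples 1, 2 and 3, and 81% (618 of 763) in no E12.5 list. Lost regions were called at 31.4%, 70.9% and 50.9%, and 18.9% (33 of 175) in no E12.5 list. For other 3-list regions the shares were 22.7%, 49.8% and 32.4%, and for regions of all 6 lists 56.1%, 85.9% and 74.2%. In each E12.5 list the order was the same: gained lowest, then other 3-list regions, then lost, then regions of all 6 lists. Only 5 gained regions (0.655%) were called in all 3 E12.5 lists, compared with 39 lost regions (22.3%). The order held near boundaries and away from them, with gained shares of 6.54%, 15.3% and 8.23% near and 4%, 10.3% and 3.71% elsewhere, and lost shares of 27.3%, 60.6% and 42.4% near and 32.4%, 73.2% and 52.8% elsewhere. The implied background coverage of the E12.5 lists was 4.13, 11.9 and 7.67 fragments per base, and its part in these shares was not tested.

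**Figure D4:**
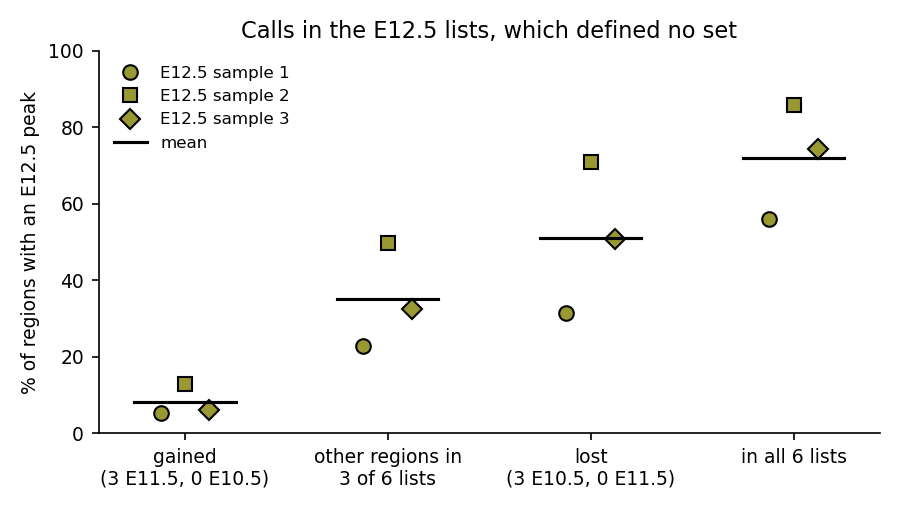
Share of regions (vertical axis, percent) overlapped by a peak of each E12.5 list, for the gained set, other 3-of-6 regions, the lost set and regions in all 6 lists. Points are the 3 E12.5 samples and lines their means; in every sample the gained set is lowest, at 5.37% to 13.0%, and the lost set lies between 31.4% and 70.9%.

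The strongest gained regions were picked by their lowest percentile of −log10 q over the 3 E11.5 lists. Their high scores in these lists follow from that choice. Over the gained set, the median fold was 4.70, 7.40 and 4.37 in E11.5 samples 1, 2 and 3, and the median percentile of −log10 q within the list was 37.8, 80.4 and 83.9. The region with the highest lowest-percentile (99.4) lay on chr17:16951151-16951766, 53.7 kb from Gm51425, with folds of 12.7, 18.4 and 12.5. A second region at the boundary of Gm51425 (chr17:17004683-17005244) had folds of 8.68, 19.5 and 7.05, and the region at the zinc finger gene Zfp960 (chr17:17063706-17064508) had 10.1, 15.6 and 9.77. The region 10.8 kb from Trim43c (chr9:88858592-88859230), had folds of 10.5, 19.9 and 10.4. None of these 4 was called at E12.5. They lie in clusters of near-identical genes, where the treatment of multiply mapping reads is not given, so their values are uncertain. Of all gained regions, 38 (4.98%) had a predicted or zinc finger gene as nearest gene, against 3.93% of all regions.

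Others of the 10 strongest gained regions lay at gene boundaries. Sin3b, a scaffold of the Sin3 histone deacetylase corepressor, was covered at 0.036 kb from its boundary (chr8:72723156-72723655) with folds of 8.02, 9.34 and 5.92 and was called in no E12.5 list. Klhl25, an adaptor of a cullin 3 ubiquitin ligase, was covered at 0.052 kb (chr7:75847928-75848885) with folds of 7.85, 9.68 and 8.13, and E12.5 samples 1 and 2 called it. Pot1b, whose promoter is printed above, had folds of 9.40, 14.0 and 8.81. The 2610008E11Rik region had folds of 8.56, 16.2 and 10.3 and was called in E12.5 samples 1 and 2. The Gm14410 region had 9.04, 18.7 and 9.77, and the region at 4930505A04Rik 7.83, 13.7 and 7.53. Folds of different lists are not on a common scale. E11.5 sample 2 had the highest number in all of these. Its median over the gained set, 7.40, was also above the 4.70 and 4.37 of samples 1 and 3. The order of the lists is therefore not particular to these regions and is not read as a difference between samples.

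Lost regions sat near the middle of their own lists. Their median fold was 3.13, 2.58 and 2.58 in E10.5 samples 1, 2 and 3, against 3.13, 2.56 and 2.58 over all peaks of these lists, and their median percentile was 47.4, 51.8 and 48.8. The strongest lay within Sh3rf1, a scaffold of JNK signalling (chr8:61459365-61460753), 4.64 kb from its boundary, with folds of 4.02, 3.28 and 2.98, and all 3 E12.5 lists called it. A second lost region within Sh3rf1 (chr8:61292712-61293328), with folds of 4.36, 3.07 and 3.00, was called in none. The lost region within Ethe1, a mitochondrial sulfur dioxygenase (chr7:24585758-24586633), had folds of 3.33, 2.63 and 2.99, and the one 78.5 kb from Abca1, a cholesterol exporter (chr4:53238144-53238676), had 3.67, 3.41 and 2.92. The Pla2g12b promoter had folds of 3.74, 2.87 and 2.96, and the region 0.733 kb inside Tanc2, a postsynaptic scaffold (chr11:105589996-105590346), 3.56, 2.89 and 2.83. Others of the 10 strongest were a region at Gm38664, 1 within Atp9b, and regions 124 kb from Mex3b and 172 kb from AW209491. Of these 10, all but the second Sh3rf1 region were called in at least 2 E12.5 lists.

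Genes of the pathway and tissue lists held gained and lost regions at shares near those of all genes. Counting each region for its nearest gene within 100 kb, 670 of 16174 genes with any region had a gained region (4.14%) and 156 had a lost one (0.965%). Among 707 genes with a region in 18 pathway and tissue lists, 31 had a gained region (4.38%) and 9 a lost one (1.27%). The lists were small, so single genes set their counts. A gained region was held by 4 of 46 axon guidance and cell contact genes, 2 of 25 FGF pathway genes, 3 of 50 Wnt pathway genes, 3 of 44 BMP and TGF-beta genes, 4 of 69 cytosolic ribosomal protein genes and 3 of 54 splicing factor genes. Of 18 Hedgehog pathway genes none held a gained region and 1 held a lost region. Each of the other 11 lists had at most 2 genes with a gained and at most 2 with a lost region, and 2 Wnt pathway genes had a lost one. Together with Epcam, Isl1 and Kcnj8 from the cell type marker lists, list members had 35 gained regions, of which 13 lay within 1 kb of a boundary and 7 were called in any E12.5 list.

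Among genes for ligands and their binding proteins, Sema3a held a gained region inside the gene and the others named here held theirs outside. Sema3a, a secreted repellent of axons, had one 0.551 kb inside the gene (chr5:13125268-13126335), with folds of 5.43, 8.51 and 3.68 in E11.5 samples 1, 2 and 3. Fgf10, an FGF made by mesenchyme that signals to epithelium and is required for palate growth, had one 93.7 kb away (chr13:118886065-118886700), with folds of 4.70, 5.15 and 3.2. The BMP family ligand gene Gdf6 had one 73.4 kb away (chr4:9770550-9771275), with folds of 4.70, 6.79 and 3.2. Pdgfc, a PDGF ligand required for palate closure, had one 29.7 kb away (chr3:81243318-81243931), with folds of 5.06, 6.00 and 2.56. None of these 4 was called in an E12.5 list. Within E11.5 sample 3 the Pdgfc region stood at only percentile 0.918 of the list. Ltbp1, which anchors latent TGF-beta in the matrix, had one 11.4 kb away, with folds of 4.34, 6.61 and 3.04.

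Receptor genes were represented in both sets. Robo1, a receptor for Slit proteins, had a gained region 0.124 kb inside the gene (chr16:72027561-72028307), with folds of 4.16, 8.62 and 4.49. Acvr2a, a receptor for activins and BMPs, had one 0.105 kb from its boundary (chr2:48813460-48814158), with folds of 3.77, 7.42 and 3.36. Within E11.5 sample 1 the Acvr2a region stood at only percentile 3.06 of the list. Epha7, an ephrin receptor, had one 28.9 kb away (chr4:28783963-28784350), with folds of 5.43, 12.8 and 5.93. The Wnt receptor gene Fzd4 had one 47.6 kb from its nearest boundary, with folds of 4.70, 3.44 and 2.88. Within E11.5 sample 2 the Fzd4 region stood at only percentile 3.77 of the list. On the lost side, Ror2, a receptor for Wnt5a, had a region 0.418 kb inside the gene (chr13:53285408-53285891), with folds of 3.41, 2.58 and 2.21 in E10.5 samples 1, 2 and 3. Fzd2, another Wnt receptor, had one at 1.30 kb (chr11:102605407-102605826), with folds of 2.48, 2.57 and 2.11. Boc, a Hedgehog coreceptor, had one 35.1 kb inside (chr16:44520151-44520510), with folds of 2.77, 2.48 and 2.82, and Igf1r, the IGF1 receptor gene, had one at 1.18 kb with folds of 2.68, 2.28 and 2.86. Within E10.5 sample 1 the Boc region stood at only percentile 4.78 of the list. Within E10.5 sample 3 the Fzd2 and Ror2 regions stood at percentiles 7.97 and 11.9. E12.5 sample 2 called the regions of Ror2, Boc and Igf1r, and E12.5 sample 3 those of Fzd2 and Igf1r.

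Inhibitors and responders of the pathways had gained regions as well. Nkd1, a feedback inhibitor of Wnt signalling, had one 9.36 kb away (chr8:88604132-88604511), with folds of 6.23, 5.71 and 3.92. Cxxc4, another Wnt inhibitor, had one 89.4 kb away with folds of 5.43, 7.69 and 3.36. Etv5, an ETS factor induced by FGF signalling, had one 10.4 kb inside the gene (chr16:22428773-22429317), with folds of 5.14, 7.07 and 4.74, and E12.5 sample 2 called it. Crabp2, which carries retinoic acid to its nuclear receptor, had one 7.64 kb away (chr3:87960603-87961110), with folds of 5.52, 8.55 and 5.30. The Hippo pathway factor gene Tead1 had one 15.8 kb away, with folds of 4.70, 4.76 and 4.01.

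Transcription factor genes of the face were also split between the sets. Gained regions lay within Eya1 (chr1:14309603-14309980), a transcriptional cofactor of craniofacial and ear development, with folds of 4.70, 3.64 and 3.52, and within Nr2f2 (chr7:70361422-70361908), a nuclear receptor of cranial neural crest, with folds of 5.35, 4.71 and 3.81. Trps1, a GATA-type repressor of cartilage and hair genes, held one at 1.35 kb (chr15:50888537-50889557), with folds of 3.98, 5.09 and 4.33. A lost region lay within Prrx1 (chr1:163311950-163312594), a homeodomain factor that marks limb and facial mesenchyme, with folds of 3.34, 2.48 and 2.25. Tbx15 held one 13.6 kb inside, with folds of 2.51, 2.22 and 2.31, and Cbfb, the partner subunit of Runx factors, one at 0.516 kb with folds of 3.32, 2.53 and 2.72. Hoxd13, which patterns limbs and the posterior trunk, held one at 0.574 kb (chr2:74668384-74668985), with folds of 3.50, 3.16 and 2.67, and all 3 E12.5 lists called it. Within E10.5 sample 3 the Prrx1 region stood at percentile 7.78 of the list, and within sample 1 the Tbx15 region at percentile 2.33. Within E11.5 sample 1 the gained Trps1 region stood at percentile 7.27.

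Some genes of general cell functions had gained regions at a boundary, and those named here are examples. Of all genes with a region, 4.14% held a gained one. The share was 5.80% of 69 ribosomal protein genes and 5.56% of 54 splicing factor genes. It was 1.61% of 62 respiratory chain genes, 3.64% of 55 cell cycle genes and 3.77% of 53 chromatin regulator genes. Rps23, a ribosomal protein gene, had a gained region at 0.016 kb, with folds of 3.98, 4.97 and 4.97. Prpf19 and Snrpb2, which encode spliceosome components, had them at 0.040 and 0.119 kb, with folds of 4.61, 8.26 and 5.41, and of 4.70, 8.95 and 4.49. Ndufc2, a subunit gene of respiratory complex I, had one at 0.025 kb with folds of 4.70, 3.85 and 5.11. Cdkn1c, an imprinted inhibitor of the cell cycle, had one at 0.056 kb (chr7:143460549-143461148), with folds of 3.63, 3.21 and 3.25. Arid1a, a subunit of the BAF chromatin remodeller, had one at 0.063 kb with folds of 3.24, 4.56 and 3.26, and E12.5 sample 1 called it. Within E11.5 sample 1 the Arid1a and Rps23 regions stood at only percentiles 0.44 and 7.27 of the list. Outside these groups and away from promoters, 2 regions were gained 22.4 and 64.2 kb from Epcam, whose product joins epithelial cells. Their folds were 5.46, 7.80 and 5.55, and 3.84, 7 and 4.38. The farther one stood at percentile 4.22 of E11.5 sample 1.

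Few genes held more than 1 region of either set. Bmf (an activator of apoptosis), Epcam, Fam102b, Fez1, Gm51425, Gpr85, Pabpc5, Ptgs2 (cyclooxygenase 2) and Xcl1 (a chemokine) each had at least 2 gained regions. Sh3rf1, Gm38664 and Rreb1, a zinc finger effector of Ras signalling, each had at least 2 lost regions, and Sh3rf1 had 1 gained region as well.

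When calls were summed over all regions of a gene, no gene passed the test. The sums include the gained and lost regions, whose calls their definition had fixed. For each of 4143 genes, those with at least 5 regions that some but not all lists called, calls in excess of those predicted from list odds were compared between stages with limma, and 0 genes rose and 0 fell (0% of genes in each direction, Benjamini-Hochberg adjusted p at 0.05). Without adjustment, 144 genes had more and 418 fewer calls at p under 0.05, and the smallest adjusted p was 0.0503. The median difference in standardized residual was -0.36 over all tested genes, where a negative value means fewer calls at E11.5. It was -0.64 over 14 FGF pathway genes, 0.15 over 34 axon guidance and cell contact genes, 0.01 over 33 Wnt pathway genes, -0.04 over 21 BMP and TGF-beta genes and 0.18 over 11 Hedgehog pathway genes. Robo1 had 0, 0 and 0 of its 10 regions called at E10.5 and 2, 9 and 3 at E11.5 (limma adjusted p = 0.0503). Mef2c, a MADS-box factor required for craniofacial neural crest, had 1, 1 and 1 of 11 regions called at E10.5 and 2, 10 and 6 at E11.5 (limma adjusted p = 0.0516). Fgf10 had 0, 1 and 1 of 10 at E10.5 and 1, 10 and 3 at E11.5 (limma adjusted p = 0.162), and Sema3a had 0, 0 and 0 of 6 against 1, 5 and 3 (limma adjusted p = 0.150). In the other direction, Dnhd1, a dynein heavy chain domain gene, had 3, 8 and 3 of 11 regions called at E10.5 and 0, 1 and 2 at E11.5 (limma adjusted p = 0.0503). Hoxb13 had 1, 3 and 3 of 6 at E10.5 and none at E11.5 (limma adjusted p = 0.0516). Sall3, a zinc finger factor, had 8, 7 and 4 of 20 against 0, 1 and 9. For Sall3, list odds predicted 3.51, 4.54 and 3.13 calls at E10.5 and 0.808, 6.34 and 10.7 at E11.5. Each E10.5 list was thus above its prediction and each E11.5 list below it. In Robo1, Mef2c and Fgf10 E11.5 sample 2 carried most of the calls. These are raw calls, and the lists differ in length. In E11.5 sample 3, the longest list, list odds predicted 5.34 calls for Robo1, 6.64 for Mef2c, 5.57 for Fgf10 and 3.31 for Sema3a. The observed calls there were below each of these. For the same genes, calls were above the prediction in E11.5 samples 1 and 2 and below it in every E10.5 list. Robo1, Fgf10 and Sema3a each held 1 gained region, so their values are not separate from the gained set. Mef2c, Dnhd1, Hoxb13 and Sall3 held no region of either set.

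Among the 2654 regions called by all 6 lists, differences in rank could be tested. Within each list these regions were ranked by −log10 q, the ranks were turned into normal scores, and the scores were compared with limma. At an adjusted p of 0.05, 69 regions (2.6%) ranked higher at E11.5 and 45 (1.7%) lower. Of the higher regions, 91.3% (63 of 69) were within 1 kb of a gene boundary, and of the lower ones 66.7% (30 of 45). The higher regions were called at 31.9%, 52.2% and 24.6% in the E12.5 lists and the lower ones at 64.4%, 91.1% and 95.6%. The counts rested on the E11.5 lists: 4 higher and 3 lower regions passed without E11.5 sample 1, 7 and 6 without sample 2, and 19 and 16 without sample 3. Without E10.5 sample 2 they were 36 and 10.

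The region with the smallest adjusted p was at Hspa13, a microsomal chaperone of the HSP70 family (chr16:75766439-75767371). It stood at percentiles 31.0, 7.78 and 47.8 of the shared regions at E10.5 and at 99.1, 99.7 and 99.1 at E11.5, a score difference of 3.15 ± 0.457 (SE; limma adjusted p = 0.00106). The region at Zfp386 (chr12:116047404-116048271) went from percentiles 9.59, 3.37 and 27.7 to 97.7, 97.0 and 88.3 (limma adjusted p = 0.00181). Tcaf2, a regulator of TRP channels, had percentiles 0.678, 5.60 and 4.11 and then 80.8, 80.2 and 63.8 (limma adjusted p = 0.00284). Ccnh, the cyclin of the CDK-activating kinase, had 2.39, 23.7 and 7.06 and then 97.0, 91.1 and 75. Aspm, a spindle pole protein of dividing progenitors, had 9.59, 23.7 and 15.8 and then 97.2, 88 and 71.3. Gm6712, Ebag9, Rfesd and Armc1 were also among the 10 with the smallest adjusted p, and in each of the 9 named here every E11.5 percentile was above every E10.5 percentile. The Hspa13, Zfp386 and Tcaf2 regions passed the threshold in every alternative fit in which they could be tested.

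Of the regions ranked lower, the smallest adjusted p was at Nfe2l2, which encodes the oxidative stress factor NRF2 (chr2:75703486-75705321). Its percentiles were 94.8, 87.1 and 97.0 at E10.5 and 6.25, 27.3 and 12.5 at E11.5, a score difference of -2.64 ± 0.447 (SE; limma adjusted p = 0.00284). Rnf214, a RING finger gene, had 64.8, 81.0 and 63.2 and then 2.15, 3.35 and 2.6. Hs3st3a1, a heparan sulfate sulfotransferase, had 80.9, 63.3 and 50.4 and then 0.151, 2.56 and 4.3. Kdm7a, a histone demethylase, had 62.9, 52.9 and 54.1 and then 2.15, 0.301 and 8.53. Arhgap35, a GTPase-activating protein, had 96.7, 97.0 and 99.1 and then 38.8, 46.6 and 76.8. Lmo7, B3glct, Spaca6, Rmi1 and Ism1 completed the 10. Outside these 10, the list member Arid1b, a BAF remodeller subunit, had 72.2, 77.9 and 51.2 and then 13.8, 3.2 and 10.6 (limma adjusted p = 0.0249).

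**Figure D5:**
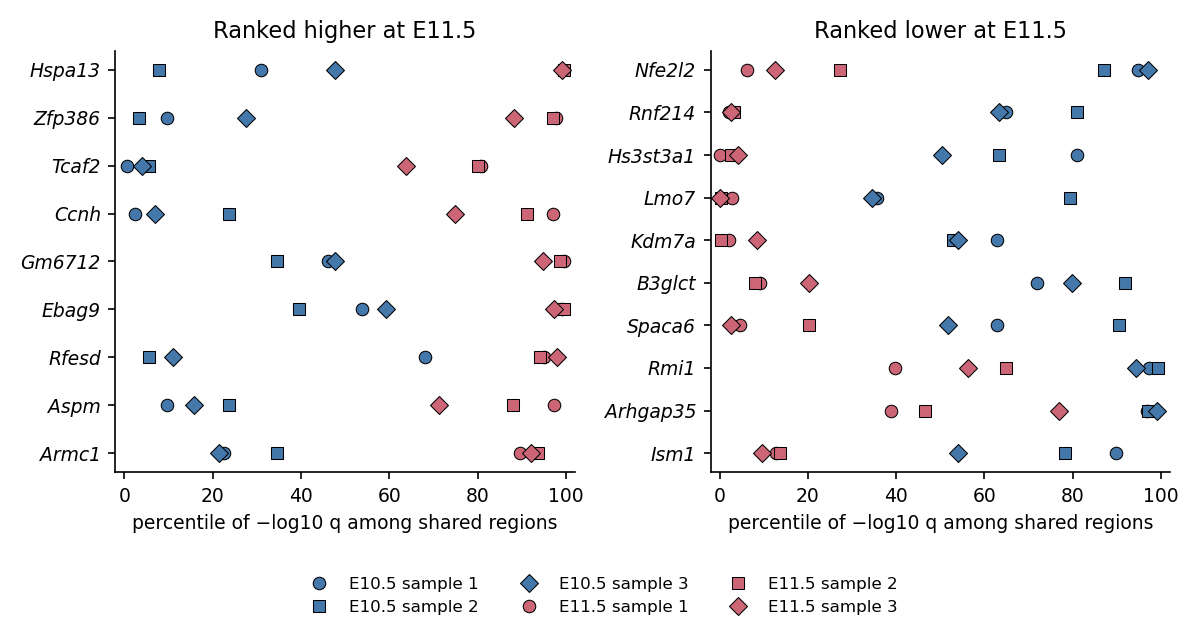
Percentile of −log10 q among the 2654 regions called by all 6 lists (horizontal axis), for 9 of the 10 regions with the smallest adjusted p among those ranked higher and for the 10 among those ranked lower, named by nearest gene. Symbols are samples 1 to 3 of E10.5 (blue) and E11.5 (red); in every row the stages do not overlap.

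The GC content of promoters moved with these ranks as well. Among 2031 shared regions that covered a promoter window, split into 3 bins of like size by GC, the lowest bin (41.3% to 60.3% GC) held 34 regions ranked higher and 3 ranked lower, the middle bin 18 and 11, and the highest bin (67.3% to 84% GC) 3 and 17. The median score difference in these bins was 0.198, -0.0246 and -0.242. Across these regions the score difference and GC had a Pearson correlation of -0.27 and a Spearman correlation of -0.263 (n = 2031 regions, which share the same 6 libraries). The median GC was 57.7% under the 55 regions ranked higher and 67.7% under the 31 ranked lower, against 64.3% under all of them. The part that base composition has in the ranks was not tested.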

How the data were processed

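ATAC-seq peak lists of 9 biological samples (3 per stage at E10.5, E11.5 or E12.5; 23 library runs) were used. Per the submitters' processing notes, Bowtie2, MACS2 and deepTools 3.3.1 were used with mm10, and per the labels blacklisted regions were removed. No source used here gives the read filtering, the transposase offset or the calling threshold. In every deposited list, the values per peak are the authors' fold enrichment at the summit (a ratio), −log10 p-value and −log10 q-value, and these were used only within a list. Depth is unknown, as the lists hold no counts. The background coverage was computed from fold = (pileup + 1) / (background + 1) with a Poisson tail and is a description only.

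Peaks were merged at 1 bp overlap. Expected calls came from a logit model with additive terms for list and region, conditional on the number of lists calling a region and fitted over regions called by 1 to 5 lists. Distances run from the strongest summit to the nearest start or end of 21631 RefSeq protein-coding genes (GRCm38.p6, given without strand, so exons and introns were not separated), with assignment within 100 kb. Gene residuals and normal scores of ranks were tested with limma 3.58.1 (R 4.3.3), stage as the only factor, Benjamini-Hochberg adjustment at 0.05. Both limma tests were first run on simulated data, where the gene test recovered few of the changed genes. Same-numbered samples of the 2 stages were taken as unpaired. Python 3.11.15, NumPy, pandas, SciPy and Matplotlib were used.

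Named regions are the 10 per set with the highest lowest-percentile and those of gene list members, up to 6 genes per list and direction. Named genes are those with at least 2 regions of a set. Genes named with the gene test, none of which passed, and genes named on X were chosen after their values were seen. For ranks they are the 10 per direction with the smallest adjusted p, and the list member Arid1b from outside the 10. Some items that the rule names are not reported here. The members and gene lists were chosen with earlier results of these data known. The X and promoter GC comparisons, and the odds among regions called by 3 lists, were chosen after seeing the data. Alternatives were a −log10 q of at least 5, equal-length lists, trimmed peaks, all 9 lists, other distances, a replicate block and leaving out each list. Trimmed peaks were set to 150 bp on each side of the summit, which widened the narrower ones.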

Additional observations from a re-analysis of the deposited data

How the results depend on the processing

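Depth, known only through the implied background, and 3 lists per stage limit what can be shown. An uncalled region can be open, and genes with few regions could not be tested. No exact test of 3 against 3 lists can fall below p = 0.1. At a −log10 q of at least 5, gained regions were 2.33 times and lost regions, 13 in number, 15.5 times their predicted counts. The boundary shares of gained and lost regions there were 73.9% and 7.69%, at equal length 73.3% and 50.7%, and within 5 kb 62.9% and 38.3%. Trimmed peaks gave 26.1% for lost regions. Odds among regions called by 3 lists gave ratios of 2.40 and 7.95. The boundary share of peaks per list reversed, to -6.26 percentage points under that q and to -2.91 without E11.5 sample 1. Both ratios were above 1 in every alternative run.

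Genes with more and with fewer calls numbered 1 and 9 (of 29 tested) at equal length and 2 and 3 (of 4143) with odds by boundary class. They numbered 4 and 2 (of 7369) over all 9 lists and 0 and 6 (of 1841) within 20 kb. When regions of 1 list were left out they were 2 and 3 (of 218), and among genes of at least 10 regions 2 and 10 (of 1065). Shared regions ranked higher and lower numbered 20 and 26 of 992 tested under the stricter q and 117 and 88 of 2654 by fold. With the sample number as a replicate block they numbered 103 and 76, against 69 and 45 without, and the gene test gave 0 and 0. Deviations of same-numbered samples from their stage means had correlations of -0.0474, -0.00672 and 0.0179 for genes. For ranks these were 0.0154, -0.0133 and 0.078. With 3 lists per stage these values cannot show whether same-numbered samples shared a batch, and this was not tested. Not every sample correlated best with its own number. At equal length, gained and lost regions were called in a mean of 1.57% and 18.3% per E12.5 list. The causes were not tested.

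Leaving out each list in turn, gained regions ranged from 797 to 5445 (1.89 to 5.47 times predicted) and lost regions from 175 to 755 (1.08 to 2.12 times). Their boundary shares ranged from 38.3% to 59.9% and from 15.1% to 27.3%, and the difference of boundary share between lists from -2.91 to 18.0 points. Genes with more calls ranged from 0 to 6 and with fewer from 0 to 14, and regions ranked higher from 4 to 79 and lower from 3 to 53. The numbers tested ranged from 2404 to 4009 genes and from 2627 to 3964 regions.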
